A study of Mus musculus with 6 samples.

Results

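The GIMAP genes encode GTPases of immunity-associated proteins, a family of GTP-binding proteins found mainly in lymphocytes. All rows of the deposited expression table whose symbol was Gimap1, Gimap3, Gimap4, Gimap5, Gimap6, Gimap7, Gimap8 or Gimap9 were taken, which gave 8 of the 24559 genes in the table. RNA sequencing was done on CD8+ T cells from the spleen of C57 BL/6 wild-type mice, listed as a primary culture, with 3 libraries from cells given L-4F, an apolipoprotein A1 mimetic peptide, and 3 from cells given ABCT buffer. The study asked what apolipoprotein A1 does to the immune functions of these cells. No label gives a dose, a time, an age, or whether replicate libraries stem from different animals or cultures. The p-values therefore cover no more than the spread among these 6 libraries, and that spread may be technical.

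GIMAP proteins sit on the membranes of organelles such as the endoplasmic reticulum, mitochondria and lysosomes, bind GTP through a G domain, and are thought to assemble into scaffolds much as septins do. Resting T cells contain much of their RNA, and loss of Gimap1 or Gimap5 in mice depletes mature lymphocytes. Gimap4 has been linked to T cell death, Gimap6 to autophagy through a protein of the ATG8 family, and Gimap3 and Gimap5 to the survival proteins of the BCL2 family.

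The 8 genes lie side by side on mouse chromosome 6, from 48647234 to 48770851 (GRCm38, GENCODE M21), a stretch of 123.6 kb. Gimap3 and Gimap6 are on the minus strand and the other members on the plus strand. Each encodes the P-loop that holds the phosphates of GTP in GTPases, a glycine, 4 variable residues, then glycine, lysine and serine or threonine. The 24 bases that encode it are shown because all members have them and because they are the same in Gimap3 and Gimap5, a pair that changed in opposite directions. They were taken from the GENCODE M21 transcript with the longest coding sequence, with the codons of the fixed residues in capitals.
Gimap1: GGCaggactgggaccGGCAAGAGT
Gimap3: GGCaaatctggctgcGGTAAAAGC
Gimap4: GGAaaaactggagcaGGAAAGAGT
Gimap5: GGCaaatctggctgcGGTAAAAGC
Gimap6: GGGaaaacaggaagcGGGAAAAGT
Gimap7: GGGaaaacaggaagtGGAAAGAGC
Gimap8 (match 1): GGGaaacagggcgcaGGCAAAAGT
Gimap8 (match 2): GGGaagcgtggtgttGGGAAAAGT
Gimap8 (match 3): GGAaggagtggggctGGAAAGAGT
Gimap9: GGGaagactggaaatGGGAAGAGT
Gimap8 held 3 matches in its 688 codons and each other member 1 match in 291 to 328 codons. Over the whole coding sequence Gimap3 and Gimap5 were identical at 90.4% of 895 aligned bases, with 86 differing bases. The next most similar pair, Gimap7 and Gimap9, were identical at 66.6% of 859 aligned bases.

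All 8 members changed with L-4F, 6 higher and 2 lower, although Gimap9 turned to -0.05 (log2) and Gimap1 was not called when a trend with transcript length was removed. Gimap7 rose most, by 30.9%, and Gimap1, Gimap3, Gimap4, Gimap6 and Gimap9 rose by 8.21% to 15.4%. Gimap5, the lymphocyte survival gene, and Gimap8, the member with several G domains, fell by 9.03% and 7.69%. The size of these log2 fold changes, 0.11 to 0.39, compares with a median size of 0.266 over all called genes. Among all 14922 genes tested, 38.2% were called at an adjusted p under 0.05 (limma), 18.4% higher and 19.7% lower, and with median centring of the libraries the split was 2161 higher and 3630 lower against 2747 and 2947. In bulk samples a change in the number of cells of a type cannot be told apart from a change in RNA per cell. The median log2 fold change of the members was 0.18, against -3.66e-05 over all genes tested. In all 8 members the 3 L-4F libraries lay entirely to 1 side of the 3 buffer libraries, as they did in 47.6% of genes tested.

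**Figure D1:**
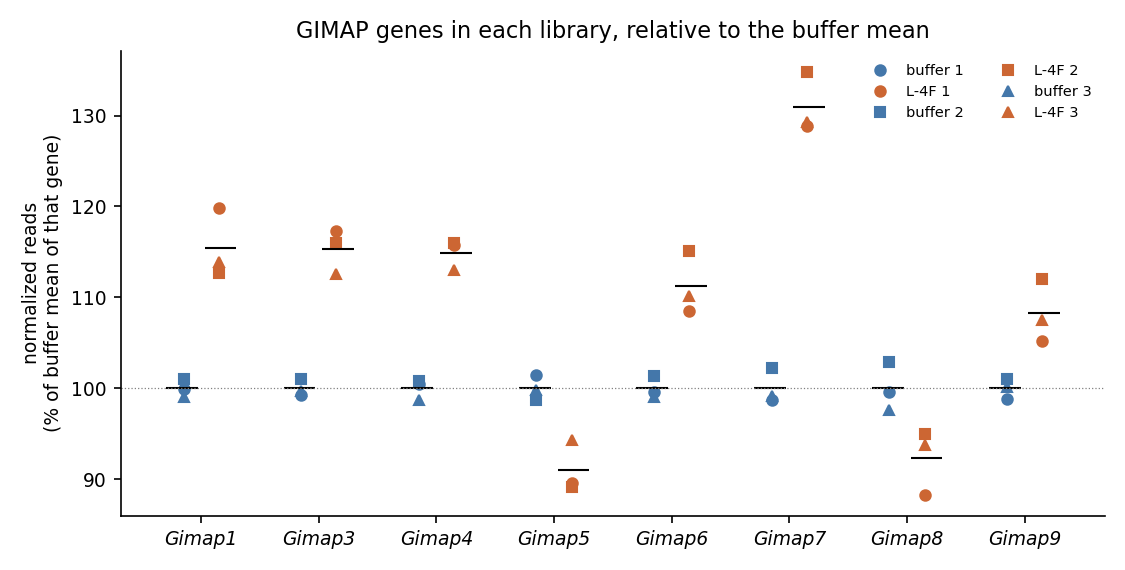
Normalized reads of each GIMAP gene in each of the 6 libraries, as a percentage of that gene's mean in the 3 buffer libraries (blue, buffer; orange, L-4F; marker shape, library number; black lines, group means; the axis does not start at 0). The L-4F libraries of 6 genes lie above the buffer libraries and those of Gimap5 and Gimap8 lie below them.

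Gimap4 and Gimap3 were the most abundant members. Levels were compared between members as RPKM, the reads per kb of the longest coding transcript scaled to the reads of the library. On that scale Gimap4 was at 508.5 ± 3.92 in buffer and 577 ± 5.63 with L-4F, and Gimap3 at 351 ± 3.22 and 400.3 ± 7.10 (SD, n = 3). Gimap6 followed at 127 and 139.7, then Gimap8 at 104.7 and 95.5, Gimap9 at 88.1 and 94.2, Gimap7 at 75.6 and 97.8, Gimap5 at 63.4 and 57.0, and Gimap1 at 62.5 and 71.3 (buffer and L-4F means). In buffer each neighbouring pair of that order was separated in all 3 libraries, apart from Gimap5 and Gimap1, whose libraries overlapped. With L-4F the levels of Gimap8, Gimap9 and Gimap7 came together, with overlap between Gimap8 and Gimap9 and between Gimap9 and Gimap7, while Gimap1 lay above Gimap5 in all 3 libraries. With summed exon length in place of transcript length the order was the same except that Gimap1 (30.4 in buffer) came before Gimap5 (29.9), again with overlapping buffer libraries, and Gimap9 and Gimap7 were separated in both groups.

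**Figure D2:**
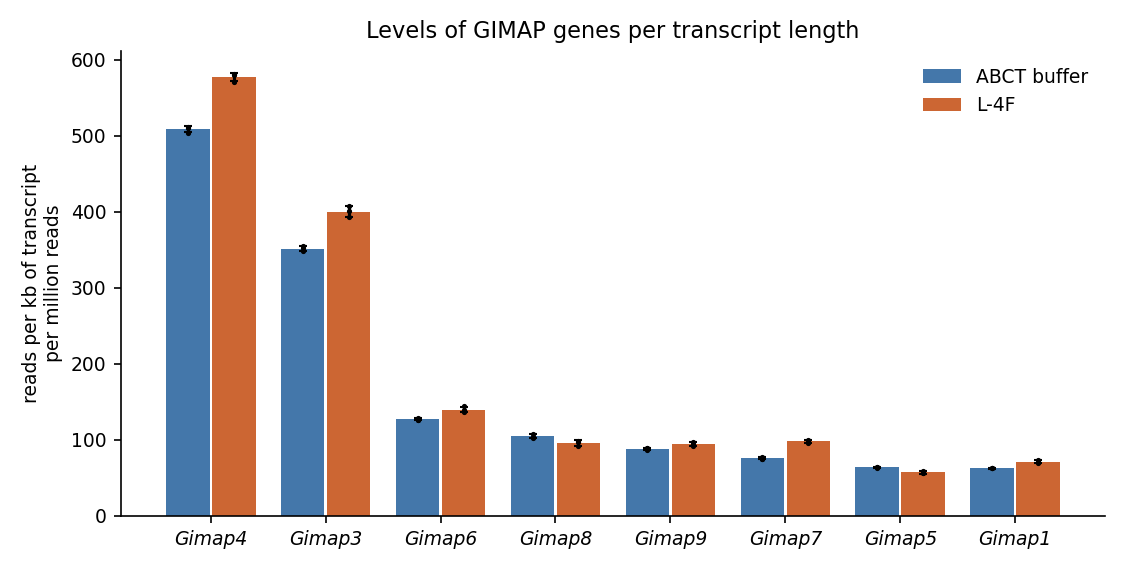
RPKM on the longest coding transcript (reads per kb, scaled to library reads) for each GIMAP gene (bars, mean of 3 libraries; error bars, SD; dots, libraries), ordered by the buffer mean. Gimap4 and Gimap3 stand at 351 to 577 and the other 6 genes at 57.0 to 139.7.

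Together the members took 0.284% ± 0.00245 of all reads in buffer and 0.312% ± 0.00236 with L-4F (SD, n = 3). Every L-4F library (0.3097% to 0.314%) was above every buffer library (0.282% to 0.287%). Within the family, Gimap3 and Gimap4 together held 58.8% ± 0.136 of the reads in buffer and 60.9% ± 0.714 with L-4F, while Gimap5 and Gimap8 together went from 16.0% ± 0.119 to 13.3% ± 0.448. These shares need no scaling between libraries, and all 3 L-4F values for Gimap5 and Gimap8 (12.8% to 13.7%) were below all 3 buffer values (15.9% to 16.1%).

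The member that rose most, Gimap7, encodes a GIMAP protein able to stimulate GTP hydrolysis by another member of the family. It was at 2607, 2701 and 2618 normalized reads in the 3 buffer libraries and at 3404, 3562 and 3415 in the 3 L-4F libraries, where a normalized read is a read count divided by the library's scaling factor. The highest buffer library was thus well below the lowest L-4F library. The log2 fold change was 0.39 (SE 0.034, 95% interval 0.32 to 0.46, limma adjusted p = 8.25e-09). Its longest transcript, at 1269 nt, is the shortest of the family. As an alternative, the deviation of each gene from its mean over all libraries was fitted against transcript length in every library. With that smooth trend taken out, Gimap7 had a log2 fold change of 0.21 (limma adjusted p = 6.16e-05).

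Gimap4, whose product has been linked to T cell death, was the most abundant member by reads, within the top 0.65% of tested genes. It was at 25391, 25463 and 24954 normalized reads in buffer and at 29241, 29298 and 28557 with L-4F. The groups were far apart for their spread, with a log2 fold change of 0.20 (SE 0.019, adjusted p = 2.32e-08, limma). Gimap4 was at 0.07 once the length trend was taken out (limma adjusted p = 0.00385). Its call ended when summed exon length was used for the trend (0.04, limma adjusted p = 0.0757) and when libraries were quantile normalized (0.01, limma adjusted p = 0.777).

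Gimap3 and Gimap5, the closest pair of the family by sequence, moved in opposite directions. Gimap3 was at 20613, 20975 and 20707 normalized reads in buffer and at 24363, 24073 and 23385 with L-4F. Gimap5 was at 3463, 3369 and 3404 in buffer and at 3056, 3041 and 3217 with L-4F. Every L-4F library was above the buffer libraries for Gimap3 and below them for Gimap5. The log2 fold changes were 0.21 for Gimap3 (SE 0.020, 95% interval 0.16 to 0.25, limma adjusted p = 4.95e-08) and -0.14 for Gimap5 (SE 0.034, 95% interval -0.21 to -0.07, limma adjusted p = 0.00267).

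The ratio of Gimap3 to Gimap5 makes the contrast within each library. Its values were 5.95, 6.22 and 6.08 in buffer and 7.97, 7.91 and 7.27 with L-4F, a difference of 0.34 on the log2 scale. The 2 groups of ratios did not overlap (p = 0.1 by exact permutation, two-sided, and no smaller p is possible with 3 against 3 libraries). Without the length trend the log2 fold change of Gimap3 was 0.11 (limma adjusted p = 0.000189) and that of Gimap5 was -0.21 (limma adjusted p = 4.94e-05). Quantile normalization gave -0.09 for Gimap5. Of the 50-base stretches in Gimap3 transcripts 8.15% also occur in Gimap5, Gm38409 or Gm28053, and 6.84% of those of Gimap5 occur in Gimap3 or in Gm28053, so a part of the reads of each gene may have been counted for the other.

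Outside the coding sequence the pair is less alike. The 250 bases before the RefSeq start of each gene (GRCm38.p6) are given because they show how far the upstream regions of these near-twin coding genes differ, with 129 identical bases after alignment. Over all pairs of members the same alignment gave 100 to 139 identical bases, so the pair was no more alike upstream than other members. The window of Gimap3 is chr6:48770852-48771101 on the minus strand and that of Gimap5 is chr6:48745947-48746196 on the plus strand, and capitals mark the letters GTAAACA of the FOXO motif.
Gimap3: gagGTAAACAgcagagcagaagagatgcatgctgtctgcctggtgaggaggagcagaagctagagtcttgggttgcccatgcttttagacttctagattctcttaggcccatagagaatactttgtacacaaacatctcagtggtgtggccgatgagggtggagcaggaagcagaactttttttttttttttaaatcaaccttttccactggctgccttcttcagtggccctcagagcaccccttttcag
Gimap5: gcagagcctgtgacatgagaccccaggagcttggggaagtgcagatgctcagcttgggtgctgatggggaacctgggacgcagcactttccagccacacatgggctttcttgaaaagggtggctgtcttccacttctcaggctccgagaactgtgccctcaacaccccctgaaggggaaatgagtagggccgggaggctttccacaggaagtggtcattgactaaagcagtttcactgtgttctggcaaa
RefSeq windows were found for all 8 members, with 2 overlapping windows for Gimap8, and 6 motifs were searched in them on both strands. GTAAACA was in the window of Gimap3, and in 3.17% of 32851 mouse promoter windows of the same length. The ETS letters CGGAAG were in windows of Gimap1, Gimap6 and Gimap8 (13.6% of all windows), and the RUNX letters TGTGGT in those of Gimap1, Gimap4 and Gimap7 (14.05% of all windows). TATAAA was found for Gimap6 (12.4% of all windows), while TGGGAA (Ikaros) and CTTTGAT (TCF/LEF) were in the window of no member. None of these matches overlapped another, and the windows of Gimap5 and Gimap9 held none of the 6 motifs.

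Gimap8 fell as Gimap5 did. It was at 9070.2, 9373 and 8896 normalized reads in buffer and at 8047, 8657 and 8540.2 with L-4F. All L-4F libraries were below the lowest buffer library, L-4F library 1 by the widest gap. The log2 fold change was -0.12 (SE 0.029, 95% interval -0.18 to -0.06, limma adjusted p = 0.00295), and with the length trend removed it was -0.13. Gimap8 was not called by limma without the trended and robust spread (adjusted p = 0.112).

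Gimap6, the family's link to autophagy, was at 11084, 11283 and 11018 normalized reads in buffer and at 12077, 12805 and 12257 with L-4F. All L-4F libraries were above the highest buffer library, with a log2 fold change of 0.15 (SE 0.025, limma adjusted p = 3.51e-05). Its longest transcript is 3179 nt, close to the 3160 nt of Gimap8, and it stayed at 0.14 without the length trend. Gimap6 and Gimap8 thus had opposite directions at nearly the same transcript length, and what set their directions was not tested. Gimap1, which mature T and B cells need, was at 2568, 2595 and 2546 normalized reads in buffer and at 3078, 2895 and 2925 with L-4F. The groups were apart, and Gimap1 rose with a log2 fold change of 0.21 (SE 0.036, limma adjusted p = 7.64e-05). Without the trend in transcript length Gimap1 was not called (0.06, limma adjusted p = 0.2). Gimap1 was still called higher when exon length took the place of transcript length (0.14, limma adjusted p = 0.0038).

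The change of Gimap9 was close in size to that of Gimap8 and opposite in direction. Its mean was 3360.2 ± 37.4 normalized reads in buffer and 3637 ± 116 with L-4F (SD, n = 3), and the log2 fold change was 0.11 (SE 0.033, limma adjusted p = 0.00889). It turned to -0.05 when the trend in transcript length (limma adjusted p = 0.276) or in summed exon length (limma adjusted p = 0.239) was taken out. Its call also ended with median centring (0.07, limma adjusted p = 0.0758) and without the trended and robust spread (adjusted p = 0.0766). With the length trend removed 4 members were called higher (13.5% of all genes) and 2 lower (12.9% of all genes), with a median of 0.07 over the members. In the authors' deposited table all 8 members had an FDR under 0.05, from 1.78e-27 for Gimap4 to 0.00538 for Gimap9.

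**Figure D3:**
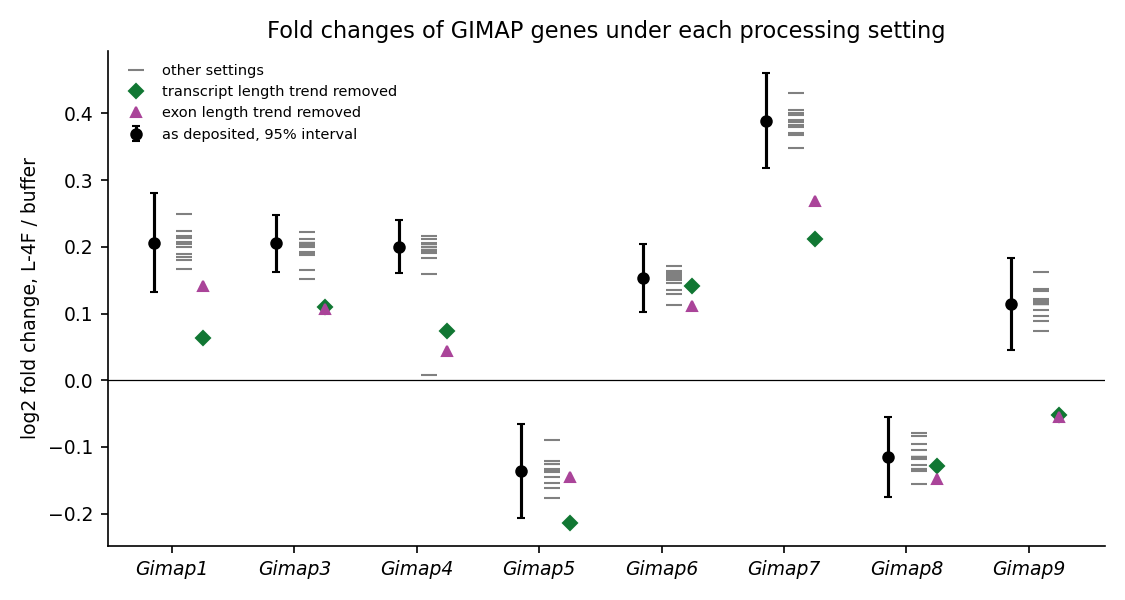
Log2 fold change (L-4F over buffer) of each GIMAP gene on the deposited scaling (black, with 95% interval), with a trend in transcript length (diamonds) or summed exon length (triangles) removed, and in the other settings (grey ticks). Gimap5 and Gimap8 are below 0 in every setting drawn, Gimap9 changes sign in both length settings, and the low tick of Gimap4 at 0.01 is quantile normalization.

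Each member was also set against the mean of the other 7 in the same library, a comparison in which the scaling of the library cancels. Gimap7 gained 0.30 on the log2 scale relative to the others, and Gimap1, Gimap3 and Gimap4 gained 0.08 to 0.09. Gimap5 and Gimap8 dropped by 0.30 and 0.28 relative to the others. For these 6 genes the libraries of the 2 groups did not overlap (exact permutation p = 0.1 for each, 0.133 after adjustment for 8 comparisons). Gimap6 (0.03, exact permutation p = 0.2) and Gimap9 (-0.02, exact permutation p = 0.6) kept overlapping values.

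The members that fell were not next to each other in the cluster, and any part of position in the directions was not tested. Gimap8 stands at the left end and Gimap5 next to last, with genes that rose between and beyond them. Several other transcripts of the stretch share bases with members. Gm28053, a locus annotated across Gimap7, Gimap1 and Gimap5 on the same strand, covers 3.48% to 6.44% of the exon bases of these members, and was at 88.6 and 94.6 normalized reads in buffer and L-4F (log2 fold change 0.09, limma adjusted p = 0.709). Gimap1os, on the opposite strand, overlaps 1107 exon bases of Gimap1 and was at 759.5 and 829.95 (log2 fold change 0.13, limma adjusted p = 0.1). Libraries were strand-specific per the labels, but no source used here says whether strand entered the counting.

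Of the 10 tested genes other than members within 100 kb of the cluster, 2 rose and 1 fell, where 18.4% of all genes tested rose and 19.7% fell. The ones that rose were Tmem176b (0.27, limma adjusted p = 0.0356), which encodes a membrane protein of immune cells, and the long noncoding RNA 4833403J16Rik (0.22, limma adjusted p = 0.0198). The groups overlapped for 4833403J16Rik, which was at 0.02 without the length trend (limma adjusted p = 0.866). Gm44226, a long noncoding RNA that ends beside Gimap5 on the other strand, fell from 111 to 80.6 normalized reads (-0.46, limma adjusted p = 0.0234). These 2 noncoding RNAs and the overlapping Gm28053 and Gimap1os were picked by position after the values were seen. On the list of neighbours fixed by symbol, 7 of 12 were tested, and Tmem176b rose and Zfp862-ps, a pseudogene, fell (-0.54, limma adjusted p = 0.00222), with a list median of 0.13. The call for Tmem176b ended in 11 settings, such as without the length trend (0.13, limma adjusted p = 0.381). It ended too when either buffer library 1 (0.18, limma adjusted p = 0.2005) or buffer library 2 (limma adjusted p = 0.0526) was left out, and likewise for L-4F libraries 2 (limma adjusted p = 0.103) and 3 (limma adjusted p = 0.0718). Tmem176a (0.30, limma adjusted p = 0.0505), Lrrc61, Zfp775, Zfp467 and Repin1 did not pass. Leaving out buffer library 3 (limma adjusted p = 0.0371) or the third L-4F library (limma adjusted p = 0.0268) brought Tmem176a past the threshold.

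**Figure D4:**
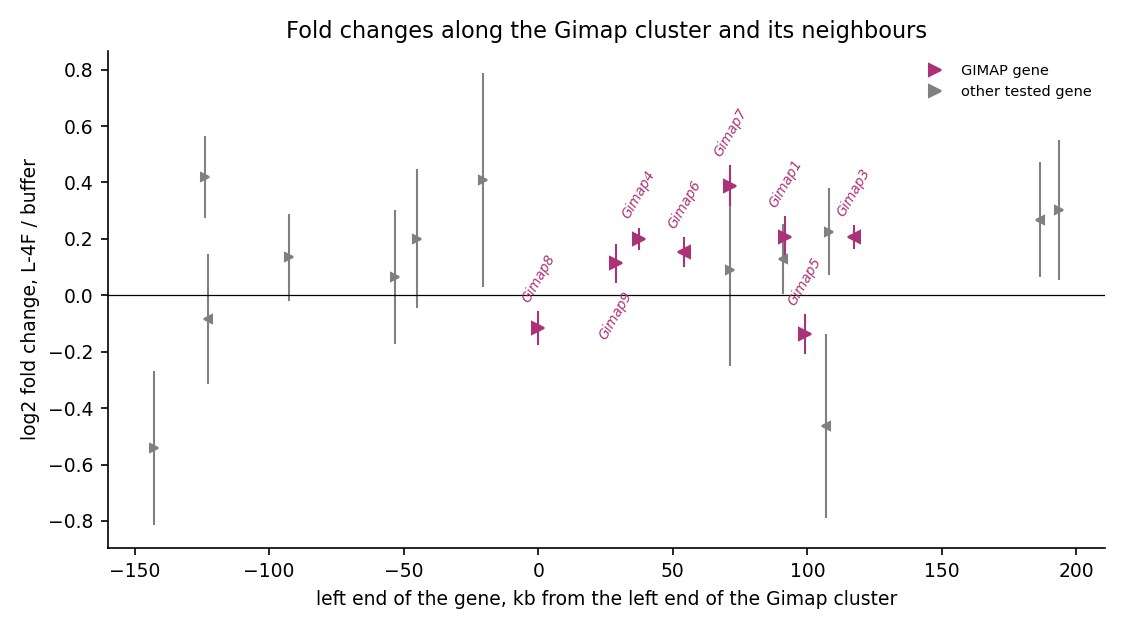
Log2 fold change with 95% interval of each tested gene in and within 130 kb of the Gimap cluster, by distance of its left end from that of the cluster (purple, GIMAP genes; grey, other genes; arrowheads, strand). The 2 GIMAP genes below 0, Gimap8 and Gimap5, are separated by 5 members above 0.

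Genes of proteins that work with GIMAP proteins moved both ways, 6 of 16 higher and 4 lower, with a median of 0.10. Over all genes tested 18.4% were called higher and 19.7% lower. Gabarap, an ATG8 protein of autophagosomes, had 3875 ± 93.9 normalized reads in buffer and 5029 ± 64.8 with L-4F (SD, n = 3), and rose by 0.38 (log2, SE 0.030), or by 0.21 without the length trend. Sqstm1, an autophagy receptor (0.18), and Mcl1, a survival protein of the BCL2 family (0.19), rose as well. Gsk3b, a kinase that Gimap5 is reported to restrain, had 2741 ± 109 normalized reads in buffer and 2189 ± 81.5 with L-4F and fell (log2 fold change -0.32, SE 0.040). Gsk3b was not called without the length trend (-0.05, limma adjusted p = 0.361), but was still called lower with the exon length trend removed (-0.15, limma adjusted p = 0.0071). A further pair was picked after its values were seen, as direct partners of GIMAP proteins. Gabarapl2, the ATG8 protein bound by Gimap6, rose (0.24), but was not called with the length trend removed (0.11, limma adjusted p = 0.117) or the exon length trend removed (0.12, adjusted p = 0.0592). Bcl2 fell (-0.14, limma adjusted p = 1.45e-05), but was higher with the length trend removed (0.08, limma adjusted p = 0.00238) and at 0.02 with the exon length trend removed (limma adjusted p = 0.588). With the length trend removed 5 genes of this list were higher and 2 lower, and 2 rather than 4 were lower on the deposited scale without buffer library 3 or without L-4F library 1.

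Genes typical of resting T cells, the state in which GIMAP RNA is abundant, had no common direction. Of 20 tested 6 rose and 8 fell (18.4% and 19.7% of all genes tested), with a median of -0.03. Slfn2, needed for T cell quiescence (0.34), and Btg1, an antiproliferative gene (0.26), rose. Bach2, a repressor that keeps T cells from effector differentiation, fell (log2 fold change -0.49, SE 0.033), with means of 3655 ± 57.2 in buffer and 2607 ± 39.3 with L-4F. With the length trend removed Bach2 was at -0.20, Slfn2 at 0.20 and Btg1 at 0.37, with 7 of the list higher and 6 lower. Among septins, whose G domain resembles that of GIMAP proteins, 2 of 11 tested rose, Septin1 (0.17) and Septin6 (0.18), and 1 fell, Septin11 (-0.13), with Septin2 counted under 2 identifiers. The share that rose was near the 18.4% of all genes tested, and the share that fell was below the 19.7% of all genes tested. With the length trend removed Septin6 was at 0.27, while Septin1 (0.02) and Septin11 (-0.02) were not called (limma adjusted p = 0.661 and 0.593).

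**Figure D5:**
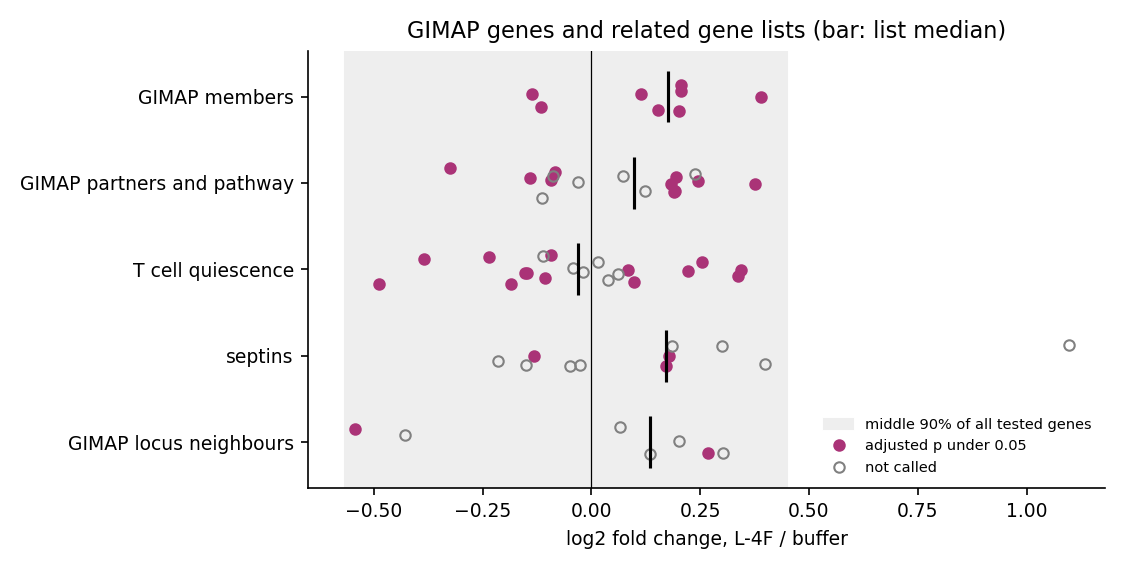
Log2 fold changes of the GIMAP genes and of the related gene lists (filled, adjusted p under 0.05; open, not called; vertical bars, list medians; grey band, middle 90% of all tested genes, -0.57 to 0.45). The members split into 6 above and 2 below 0, all within the band. Gimap9 falls below 0 with a length trend removed.

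By a rule on the mean profile of the members over the 6 libraries, the most similar of 9175 genes were Ndufa9, a complex I subunit (r = 0.9996), Rpl36a-ps2, Pclaf, Tmem254a and Rpl17-ps9, and the most opposite were Prr12 (r = -0.9996), Tob2, Ppfia1, Galnt11 and Rbm22. Rpl36a-ps2 and Rpl17-ps9 are pseudogenes whose reads may belong to their parent genes. These values of r are a description over 6 libraries that share the group difference. Gimap5 (r = -0.95) and Gimap8 (r = -0.78) ran against the mean of the other members, whereas the other 6 had r from 0.89 to 0.99 with it.

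The cells carried the markers of CD8 T cells at high levels, and 5 of 6 of these markers rose, Cd8b1 (0.34), Cd3g (0.41), Cd3d (0.40), Trac (0.16) and Cd8a (0.12), while Cd3e (0.05, limma adjusted p = 0.184) did not pass. For this count and those of the other marker lists, the shares over all genes tested were 18.4% higher and 19.7% lower. Trac was at -0.05 with the length trend removed (limma adjusted p = 0.128). Markers of other cells that the sample could hold were summed as CPM, counts scaled to library size. The summed B cell markers were at 8.58 to 10.05 CPM in buffer and 11.5 to 13.2 with L-4F, against 2825 to 2869 and 3097 to 3144 for the GIMAP genes. Of 5 tested B cell markers 1 rose, and the list included Pax5 at a mean of 3.82 and 3.12 normalized reads. Of 6 natural killer cell markers 3 rose (249.5 to 259.8 CPM in buffer, 261.5 to 272.5 with L-4F). Most of that sum was Eomes, which CD8 T cells also use and which did not pass (0.04, limma adjusted p = 0.353). Endothelial markers did not pass in any of 5 tests (90.5 to 95.4 and 90.7 to 96.2 CPM), and Cdh5 was at a mean of 0.687 and 2.03 normalized reads. Most of the endothelial sum was Pecam1, with means of 1734 and 1852 normalized reads (0.09, limma adjusted p = 0.0894). Of 8 tested myeloid markers 2 rose. S100a9 had a mean of 41.7 normalized reads in buffer and 91.5 with L-4F (log2 fold change 1.10, limma adjusted p = 0.000109), and S100a8 one of 25.5 and 54.1 (log2 fold change 1.12, limma adjusted p = 0.00275). The sum of the whole myeloid list, most of it Lyz2, was 51.6 to 60.5 CPM in buffer and 56.1 to 60.2 with L-4F. Of 6 tested red cell and platelet markers 4 rose, with list sums of 49.5 to 51.9 CPM in buffer and 66.6 to 70.8 with L-4F. Those that rose were the platelet genes Pf4 and Ppbp and the globins Hbb-bs and Hba-a1. Most of the sum was Pf4 (means of 769 and 1071 normalized reads) and Ppbp (387 and 515), while Hbb-bs was at 82.8 and 124.5. Of 3 CD4 T cell markers 1 fell, Cd4, with means of 46.6 and 29.0 normalized reads (log2 fold change -0.68, limma adjusted p = 0.0294). Foxp3 (0.33, limma adjusted p = 0.0596) moved the other way and Zbtb7b (-0.16, limma adjusted p = 0.107) the same way, but neither passed. The sum of the CD4 list, most of it Zbtb7b, was 23.35 to 25.5 CPM in buffer and 22.2 to 24.04 with L-4F. Without the length trend 2 red cell and platelet markers rose instead of 4, namely Pf4 and Ppbp, and no globin was called. In that setting 1 natural killer marker rose instead of 3, while S100a8 (0.89), S100a9 (0.87) and Cd4 (-0.69) were still called. None of these genes was at 0 in every library. The part of these cells in the GIMAP values was not tested.

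The libraries held 25073292 to 31332003 reads over genes, and each member was covered by 2469 to 29491 reads in a library, so that counting error alone was at most 2.01% of a value. Libraries of a group differed by 2.19 to 2.72 times counting noise and libraries of different groups by 7.71 to 8.85 times (median chi-square over genes), so no library repeated another. The labels name no batch.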

How the data were processed

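The deposited table held a log2 value per gene and library, which the authors computed as log2 of a normalized read count plus 1. That scale was inferred by undoing it: all libraries gave whole reads for 100% of genes to within 0.01 read. The authors also deposited their own log2 fold change, p-value and FDR per gene, by a test that no source used here names. StringTie 1.3.1c and FastQC (0.11.2, 0.11.5) appear in the submitters' processing notes. Aligner, build and annotation: not given in the sources used here. Strand-specific TruSeq libraries were made from 1 μg of total RNA, per the labels' protocols. The groups were taken from the titles.

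Genes with at least 10 normalized reads in at least 3 libraries (14922) entered limma (version 3.58.1, with statmod 1.5.0 in R 4.3.3) as deposited log2 values, with a trended and robust spread and no term but group. P-values were Benjamini-Hochberg adjusted over all of them, with 0.05 as the threshold. A fold change is therefore a difference of log2(normalized count + 1), which understates changes of low genes. The procedure was tested on simulated reads with far fewer changed genes than were called here, and no result above rests on that test. Coordinates, lengths and coding sequences came from GENCODE M21 (24513 of 24559 genes matched by identifier), which may differ from the authors' annotation, and upstream sequences from RefSeq on GRCm38.p6. Coding sequences were aligned with Biopython 1.88. Length and GC trends were removed per library by robust loess with span 0.3, fitted to each gene's deviation from its mean over all libraries. A group difference that follows length or GC content is therefore removed too. The gene lists, members and tests were chosen with earlier results of these data known, so no list was tested as a set. All members were named, and of other lists up to 4 genes with the smallest adjusted p, all tested neighbours of the cluster, and exceptions stated in the text. One gene that this rule names is not reported here. The most similar genes were the 5 highest and 5 lowest by r among genes with at least 10 CPM. Other settings were median centring, quantile normalization, total-read scaling, no filter, a stricter filter (10 CPM), limma with neither trend nor robust option, limma-voom on the recovered reads, a pseudocount of 0.1, removal of a trend in transcript length, the replicate number as a block, and each library left out. Removal of a trend in exon length or GC content was added after the data were seen. Counting error and the intervals cover these libraries only.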

Additional observations from a re-analysis of the deposited data

How the results depend on the processing

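Over 18 other settings, 136 of 144 values of the 8 members kept their direction and call, 6 lost the call and 2 changed sign. Those 2 were Gimap9 with the trend in transcript length (-0.0517) or exon length (-0.0545) removed. Gimap3, Gimap5, Gimap6 and Gimap7 were called in the same direction in all 18. One member was called lower, in place of 2, without the trended and robust spread. Without any single library 6 members were called higher and 2 lower. Members apart from the mean of the others numbered 6 to 7 without single libraries, and the difference of Gimap9 ranged from -0.0336 to 0.001, the latter without L-4F library 1. Over all genes 1922 were called lower with the length trend removed, and 4816 to 5362 were called without single libraries. Genes of partner proteins called lower numbered 2 under quantile normalization, without the trended and robust spread, and with either length trend removed, and 2 to 5 without single libraries (2 without buffer library 3 or L-4F library 1). Septins called higher numbered 4 with the exon length trend removed, and those called lower 3 with median centring, 2 by limma-voom, 0 with either length trend removed, and 1 to 2 without single libraries (2 without L-4F library 2 or 3). Neighbours called higher numbered 0 with median centring, quantile normalization, no filter, no trended and robust spread, or either length or GC trend removed, and 0 to 2 without single libraries, and those called lower 0 with the 10 CPM filter, which left Zfp862-ps out of the test. Bcl2 was at 0.0838 with the transcript length trend removed and 0.0161 with the exon length trend removed, and Septin11 at 0.0329 in the latter. The cause of these changes was not tested. With the replicate number as a block 5521 genes and the same number of members, 6 higher and 2 lower, were called. Samples with the same number deviated from their group means with correlations of 0.0511, 0.0111 and 0.109. Those with different numbers had correlations from -0.0812 to 0.0305. Buffer library 2 correlated better with L-4F library 1 (0.0226) than with library 2. Whether samples with the same number share an origin cannot be told from these values.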
